A study of Mus musculus with 14 samples.

Results

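The 7 libraries compared here hold RNA of germinal centre (GC) B cells sorted as light zone (LZ) cells, 3 of the mutant SykY317F and 4 of wild type (WT), out of 14 libraries in the series. They were chosen by their genotype and zone labels. All cells came from popliteal lymph nodes of C57BL/6 chimeric mice, in which WT and SykY317F each made up 50%, harvested on day 14 after immunization with NP-KLH, a hapten coupled to a carrier protein. Both genotypes therefore had the same kind of host and the same antigen, and the genotype was the labelled difference. The other 7 libraries hold dark zone (DZ) cells of both genotypes (4 WT and 3 SykY317F) and entered the same fit. The gate that separated the zones is not given in the sources used here, and the labels leave out whether each library is from its own mouse, so p-values measure the spread between these libraries, which may be technical.

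Syk is the tyrosine kinase that docks on the phosphorylated antigen receptor of B cells and passes its signal to the adaptor Blnk, to Btk and to phospholipase C. Cbl proteins are ubiquitin ligases that bind phosphotyrosines of active kinases and mark them for turnover, and the tyrosine replaced by phenylalanine in SykY317F lies in the linker of Syk, where Cbl is known to bind. The DZ of a GC is where B cells divide and mutate antibody genes. In the LZ they take up antigen, present it to T follicular helper cells and are selected to return, to leave as plasma or memory cells, or to die. Selected LZ cells switch on Myc and enter the cell cycle before they return to the DZ, where most divisions take place.

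Among the members of that cycle, genes of DNA replication and mitosis were lower in SykY317F LZ than in WT LZ, with 48 of 55 tested mitotic genes and 37 of 44 replication genes on the lower side. Genes of cytosolic ribosomal proteins lay mostly on the higher side, 60 of 74. Of 15 tested genes on a list of costimulation and T cell help 11 lay higher, and the antigen receptor cascade showed a median near 0. That list also holds the death receptor Fas and Tnfrsf13c, the receptor for the survival factor BAFF. No single gene passed the threshold in edgeR, so each of these statements describes a direction and its size rather than a list of called genes. In bulk libraries, fewer dividing cells and less of these RNAs per cell cannot be told apart.

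Depth differed between the groups and touches every value below. A unique molecular identifier (UMI) marks 1 captured molecule, so UMI totals give the depth. WT LZ libraries held between 499443 and 1600902 UMIs and SykY317F LZ libraries between 149641 and 379125, and the groups did not overlap (exact permutation test of the means, two-sided, p = 0.0571). Per 100 reads the WT LZ libraries gave 33.5 to 42.6 UMIs and the SykY317F LZ libraries 9.39 to 15.8 (exact permutation test of the means, two-sided, p = 0.0286, the smallest that 35 arrangements allow). The number of genes detected was lower as well, at 8066 ± 459 against 9544 ± 316.5 (SD, n = 3 and 4, exact permutation p = 0.0286). Levels are given as CPM, UMIs scaled to the library total after TMM adjustment. A count of 3 UMIs corresponded to 8.95 to 18.8 CPM in SykY317F LZ and to 1.73 to 5.76 CPM in WT LZ, so differences of genes below those levels could not be detected. These floors, and the counting intervals given for single genes, cover counting error alone. The part of depth in the genotype differences cannot be told apart from genotype in these 7 libraries.

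The cells carried the markers of their label. All 13 B cell markers on a list of that size were measured and tested, and their summed level was 56837, 47879, 55184 and 41757 CPM in WT and 73932, 64004 and 61293 CPM in SykY317F, with the libraries always given as replicates 1, 2, 3 and 5 of WT and 1, 2 and 4 of SykY317F. Cd74, H2-Aa and H2-Ab1, also on the MHC class II list below, weigh most in that sum. Pooled levels of Cd74 were 16963 CPM in WT and 31267 in SykY317F. Of the 13 markers 9 lay higher and 4 lower. Among the lower ones were Ms4a1, at pooled levels of 794 and 363 CPM, and Ptprc, at 581 and 238. In WT cells, 32 tested genes of a light zone programme had a median log2 fold change of 0.85 between LZ and DZ, and 15 genes of a dark zone programme had -1.01. Both lists were written with earlier results of these data known, so these medians describe the zones and are no independent check of their labels. Of 28 T cell markers 20 were measured, their summed level was 386 to 718 CPM in WT LZ and 552 to 711 in SykY317F LZ, and 3 of the 20 had 0 UMIs in SykY317F LZ. Of 31 macrophage and myeloid markers 22 were measured, with a summed level of 1059.5 to 2026 CPM in WT LZ and 881 to 1713 in SykY317F LZ. The groups overlapped in both sums. Pooled over libraries, Lck stood at 134 CPM in WT and 158 in SykY317F and Cd2 at 140.1 and 197, the best measured of the T cell markers. Apoe made up most of the myeloid sum, with pooled levels of 1221 and 1318 CPM, while 9 of the 11 tested myeloid markers lay lower in SykY317F, among them Lyz2 at 61.3 and 31.3, Tyrobp at 22.5 and 5.96 and C1qa at 11.97 and 2.98 CPM. Of 20 stromal and endothelial markers 9 were measured, 4 of them with 0 UMIs in SykY317F LZ. All groups share the B cell sort, and 13 of 14 markers of GC B cells were measured and tested, 7 of them higher, with a median genotype difference of 0.11. One of the higher members is Cd38 (1.40), a gene that mouse GC B cells turn down. The 9 members with a mean of at least 50 CPM had a median of -0.24, and the list median changed side under 6 of 13 alternatives.

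Syk transcripts overlapped between the genotypes, at 353, 502, 422 and 409.9 CPM in WT and 429.8, 429 and 383 CPM in SykY317F. The log2 fold change of Syk (chromosome 13, 52583173 to 52648792, coordinates throughout from the GENCODE annotation of GRCm38) was -0.03 ± 0.21 (SE, adjusted p = 0.984). The labelled change is a single amino acid, so the transcript level does not check the genotype label.

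Of 7999 genes tested in the light zone with edgeR, 0 (0%) passed an adjusted p of 0.05, and the smallest adjusted p was 0.111, shared by 13 genes. At an unadjusted p under 0.05 there were 785 genes, 291 higher in SykY317F (3.64% of those tested) and 494 lower (6.18%). All 3 SykY317F libraries lay above all 4 WT libraries for 307 genes (3.84%) and below them for 533 genes (6.66%). The median log2 fold change of all tested genes was -0.06, and 46.0% lay on the higher side. Scaling by library size alone shifted that median by -0.11, and the unadjusted split became 191 higher and 701 lower. DESeq2's Wald test on the same counts, with its own filter leaving 4364 genes with an adjusted p, called 28 higher (0.642%) and 14 lower (0.321%).

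**Figure D1:**
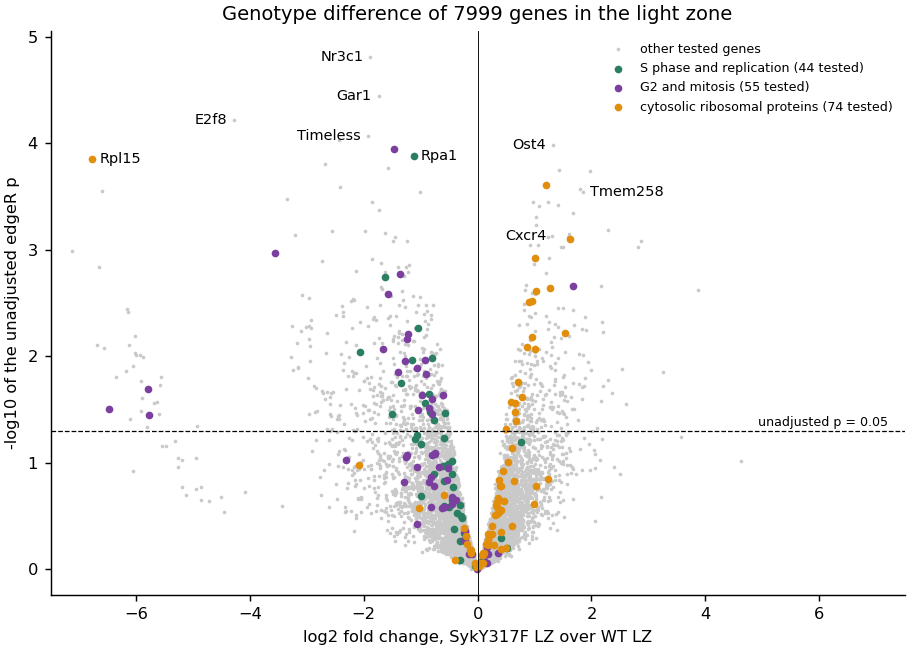
Log2 fold change of SykY317F LZ over WT LZ (x axis) against -log10 of the unadjusted edgeR p (y axis) for 7999 genes, with 3 gene lists in colour. Replication and mitosis genes sit mostly left of 0 and ribosomal protein genes mostly right of it, while the genes beyond -5 have 0 UMIs in SykY317F LZ and a fitted fold that depends on the prior count.

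The gene with the smallest p was Nr3c1 (chromosome 18, 39410545 to 39519421), the glucocorticoid receptor, a nuclear receptor that is a transcription factor in lymphocytes. It was measured at 85.6, 87.98, 65.3 and 83.7 CPM in WT and 26.9, 16.9 and 18.8 CPM in SykY317F. The highest SykY317F library lay far below the lowest WT library. The log2 fold change was -1.88 ± 0.34 (SE, adjusted p = 0.111 in edgeR). In the DZ the same genotype difference was -0.07 ± 0.24. Of 13 tested members of a glucocorticoid list, Nr3c1 included, 8 lay on the higher side, with a median of 0.16 that turned to -0.12 without SykY317F replicate 2. Tsc22d3, a textbook glucocorticoid-induced leucine zipper gene, stood at 86.7, 152, 34.5 and 72.2 CPM in WT and 68.6, 378 and 100.4 CPM in SykY317F, a spread wide enough to overlap, with a log2 fold change of 1.02 ± 0.58 (adjusted p = 0.625) that turned to -0.12 without SykY317F replicate 2.

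Gar1 (chromosome 3, 129824912 to 129831396), a core protein of the snoRNPs that pseudouridylate ribosomal RNA, was measured at 166, 138, 159 and 100.5 CPM in WT and 38.8, 62.1 and 25.1 CPM in SykY317F, a log2 fold change of -1.74 ± 0.33. Timeless (chromosome 10, 128232065 to 128252941), which protects replication forks, stood at 43.9, 56.3, 78.7 and 68.1 CPM in WT and 20.9, 11.3 and 12.5 CPM in SykY317F, a log2 fold change of -1.93 ± 0.40. Rpa1 (chromosome 11, 75298166 to 75348324), the large subunit of the single-stranded DNA binding complex, was among the best measured of these genes with 937 UMIs in WT and 71 in SykY317F. Its level was 256, 203, 244 and 215 CPM in WT and 107, 102 and 107 CPM in SykY317F, with very little spread within SykY317F, and its log2 fold change was -1.12 ± 0.24. Pole4 (chromosome 6, 82618992 to 82705365), a small subunit of DNA polymerase epsilon, stood at 91.1, 51.4, 82.5 and 99.3 CPM in WT and 2.98, 16.9 and 25.1 CPM in SykY317F, a log2 fold change of -2.68 ± 0.58. For these 4 genes no SykY317F library reached the lowest WT library.

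Spc24 (chromosome 9, 21755442 to 21760303), a subunit of the Ndc80 complex that ties kinetochores to spindle microtubules, was measured at 109.7, 132, 165 and 141 CPM in WT and 50.7, 28.2 and 69.00 CPM in SykY317F, a log2 fold change of -1.47 ± 0.31. Uck2 (chromosome 1, 167222883 to 167285320), a uridine-cytidine kinase of the pyrimidine salvage pathway, stood at 38.4, 43.5, 47.99 and 33.5 CPM in WT and 8.95, 5.65 and 6.27 CPM in SykY317F, and the mutant values rest on 5 UMIs in all. E2f8 (chromosome 7, 48866429 to 48881596), a repressive E2F factor of the cell cycle, had 1 UMI in SykY317F against 130 in WT, a 20.9-fold lower level (95% counting interval 3.69 to 832), and its adjusted p was 0.111. Clic4 (chromosome 4, 135213969 to 135272814), an intracellular chloride channel family protein, was at 73.5, 107, 106 and 116 CPM in WT and 38.8, 28.2 and 31.4 CPM in SykY317F. Rpl15 (chromosome 14, 18267823 to 18271391), a protein of the large ribosomal subunit, had 0 UMIs in SykY317F and 63 in WT, and was at least 3.38-fold lower when a floor of 3 UMIs over the SykY317F group is used. It was low in WT too, at 17.6, 11.9, 11.5 and 16.7 CPM, and genes of ribosomal proteins have many near-identical copies, so its count is uncertain. These 5 genes also kept the groups apart, and each had an adjusted p of 0.111 in edgeR.

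**Figure D2:**
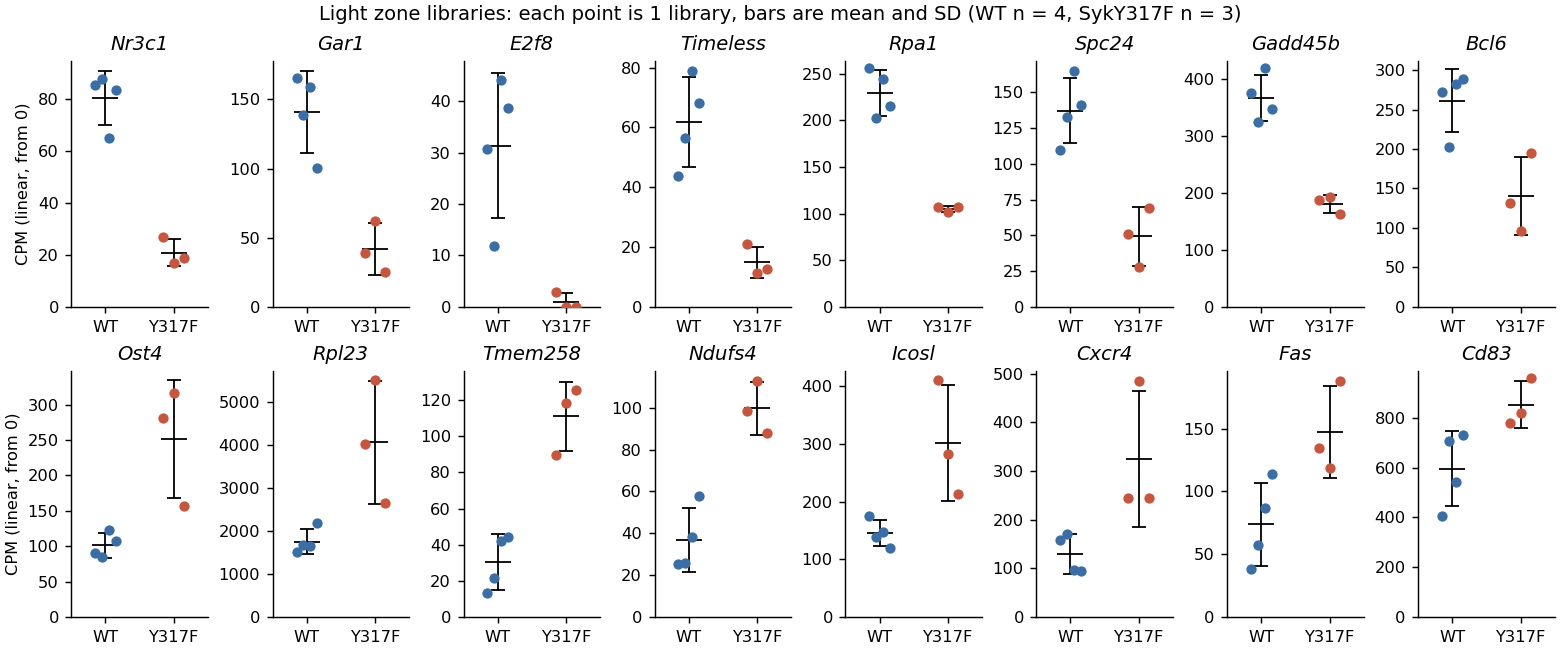
CPM (linear y axes from 0) of 16 genes in the 4 WT and 3 SykY317F LZ libraries, with mean and SD. The first 8 genes are lower and the last 8 higher in SykY317F, and the groups do not overlap in any of the 16 panels.

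Among lower genes with a mean of at least 50 CPM in the LZ, which lose less to depth, 4 more followed. Gadd45b (chromosome 10, 80930073 to 80932204), a stress-inducible protein that activates p38 and JNK signalling, was at 375, 324, 418 and 348 CPM in WT and 188, 192 and 163 CPM in SykY317F, with 366 ± 40.5 CPM in WT (SD, n = 4) and 181 ± 15.7 in SykY317F (SD, n = 3). Its log2 fold change was -1.01 ± 0.23 (adjusted p = 0.1202). Etfa (chromosome 9, 55454508 to 55512243), which carries electrons from fatty acid oxidation to the respiratory chain, had a log2 fold change of -1.86 ± 0.44. Arf4 (chromosome 14, 26638074 to 26665084), a small GTPase of Golgi traffic, had -1.98 ± 0.50, and Pdcd2 (chromosome 17, 15519208 to 15527301) had -1.46 ± 0.37. In Gadd45b the spread within each genotype was small beside the distance between them.

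Ost4 (chromosome 5, 30905885 to 30907788), a small subunit of the oligosaccharyltransferase that N-glycosylates proteins, was at 89.96, 85.01, 123 and 107 CPM in WT and 281, 316 and 157 CPM in SykY317F, a log2 fold change of 1.33 ± 0.28. Tmem258 (chromosome 19, 10204014 to 10207824), another small subunit of that complex, was at 13.2, 21.7, 42.2 and 44.5 CPM in WT and 89.5, 119 and 125 CPM in SykY317F, a log2 fold change of 1.85 ± 0.42. Dad1, a further subunit, was at 109, 248, 221 and 151 CPM in WT and 364, 384 and 339 CPM in SykY317F (0.999 ± 0.27, adjusted p = 0.193). In each of these 3 genes every SykY317F library lay above every WT library. They were set together after their values were seen, and the other tested subunits of the complex overlapped between the groups: Rpn2 had 0.10 ± 0.27, Ddost had 0.07 ± 0.33, Ostc had 0.23 ± 0.27, Stt3a had 1.08 ± 0.77, Magt1 had 0.86 ± 0.63, Stt3b had -0.17 ± 0.36 and Krtcap2 had -0.17 ± 0.33. The secretory pathway list, which holds Ost4 and Dad1, was split, with 33 of its 68 tested members higher and a median of -0.05.

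Ndufs4 (chromosome 13, 114287795 to 114388258), an accessory subunit of respiratory complex I, was at 25.2, 25.7, 38.4 and 57.7 CPM in WT and 98.5, 113 and 87.8 CPM in SykY317F, a log2 fold change of 1.41 ± 0.33. Atp2a3 (chromosome 11, 72961169 to 72993044), the SERCA3 pump that returns calcium to the endoplasmic reticulum, was at 342, 328, 228 and 247 CPM in WT and 588, 609.7 and 546 CPM in SykY317F. Its log2 fold change was 1.02 ± 0.25 (adjusted p = 0.154), and its SykY317F libraries were close together, all above the highest WT library. Ap4b1 (chromosome 3, 103809520 to 103822025), a subunit of the adaptor complex AP-4, was at 30.7, 26.7, 28.8 and 24.2 CPM in WT and 32.8, 95.97 and 151 CPM in SykY317F, and SykY317F replicate 1 lay barely above WT. The row named Mir703 (chromosome 5, 98475556 to 98475664) was at 628, 638, 774 and 728 CPM in WT and 1301, 1264 and 1675 CPM in SykY317F. A library made from poly(A) RNA does not measure a mature miRNA. In read counts its log2 fold change was 0.14.

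Exons of Ost4, Rpl36al, Tmem258, Ap4b1, E2f8, Timeless, Uck2, Rpa1, Arf4 and Pdcd2 overlap those of a neighbouring gene in the annotation. Tmem258 overlaps Fen1. The strand setting of the authors' counting is not given in the sources used here, so reads of such neighbours could be shared or split.

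Genes of mitosis had the lowest median among the 43 lists plotted by median. Of 64 mitotic genes 61 were measured and 55 tested, and 48 of the 55 lay lower in SykY317F, with a median log2 fold change of -0.81 against -0.06 for all tested genes. At an unadjusted p under 0.05, 21 were lower (38.2%) and 1 was higher (1.82%), beside 6.18% and 3.64% of all tested genes. Of the 26 members with a mean of at least 50 CPM, 25 lay lower, with a median of -0.74. The summed level of the 61 measured genes was 4638, 4292, 7446 and 5533 CPM in WT and 3919, 2918 and 3607 CPM in SykY317F. The highest SykY317F library lay below the lowest WT library, and WT replicate 3 stood highest.

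Top2a, the topoisomerase that untangles chromosomes before mitosis, was at 82.3, 129, 289.8 and 216 CPM in WT and 74.6, 56.5 and 75.3 CPM in SykY317F, a log2 fold change of -1.36 ± 0.38 (adjusted p = 0.209). Spc25, a partner of Spc24 in the Ndc80 complex, had 1 UMI in SykY317F against 81 in WT, a 13.03-fold lower level (95% counting interval 2.27 to 521). Ccnb2, a mitotic cyclin, was at 52.7, 63.3, 134 and 72.7 CPM in WT and 29.8, 0 and 43.9 CPM in SykY317F (-1.66 ± 0.56). Mki67, the proliferation antigen Ki-67, overlapped between the groups, at 147, 107, 244 and 181 CPM in WT and 134, 84.7 and 125 CPM in SykY317F, with a log2 fold change of -0.54 ± 0.35 (adjusted p = 0.657). Cks2, a small protein that binds cyclin-dependent kinases, went the other way at 13.2, 9.89, 7.68 and 8.66 CPM in WT and 47.8, 16.9 and 25.1 CPM in SykY317F, a log2 fold change of 1.67 ± 0.48. It was the 1 mitotic gene on the higher side at an unadjusted p under 0.05, and its WT values rest on 41 UMIs in all.

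Of 48 replication genes, which were all measured, 44 were tested and 37 of them lay lower, with a median of -0.55. At an unadjusted p under 0.05, 13 were lower (29.5%) and 0 higher. Of 26 with at least 50 CPM, 22 lay lower, with a median of -0.49. The summed level was 4745, 4376, 6469 and 4745 CPM in WT and 4029, 3342 and 3230.2 CPM in SykY317F, again without overlap. Orc6, of the origin recognition complex, was at 29.6, 37.6, 69.1 and 47.9 CPM in WT and 17.9, 11.3 and 12.5 CPM in SykY317F (-1.62 ± 0.45). Gins2, of the replicative helicase, was at 60.3, 79.1, 109 and 69.3 CPM in WT and 32.8, 50.8 and 31.4 CPM in SykY317F (-1.06 ± 0.34), and Gins1 had 4 UMIs in SykY317F and 99 in WT. Pcna, the sliding clamp of DNA polymerase, which is also on the repair list, was at 211, 214, 401 and 353 CPM in WT and 137, 95.97 and 263 CPM in SykY317F (-0.85 ± 0.34, adjusted p = 0.413), and SykY317F replicate 4 lay within the WT range.

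Depth and single libraries changed the counts at that p. With all libraries thinned to 149641 UMIs, the medians were -0.79 for mitosis and -0.50 for replication, while 0 members of either list stayed under an unadjusted p of 0.05 in the median draw. Without WT replicate 3 the medians were -0.58 and -0.41, with 15 and 5 lower members at that p. Without SykY317F replicate 2, 11 and 7 such members were left. In the DZ, SykY317F replicate 4 gave 15.7 UMIs per 100 reads, near the highest of the SykY317F LZ libraries. Its mitotic sum was 6803 CPM, beside 5085 and 4331 in the other SykY317F DZ libraries, and its replication sum was 4061 CPM, beside 4413 and 3616. In WT DZ (replicates 2, 3, 4 and 5) the mitotic sums were 6114, 7330, 5992 and 7745 CPM. The WT DZ replication sums were 5166, 5796, 4610 and 5978 CPM. These values describe 1 library of low yield, and the part of yield in the sums was not tested.

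**Figure D3:**
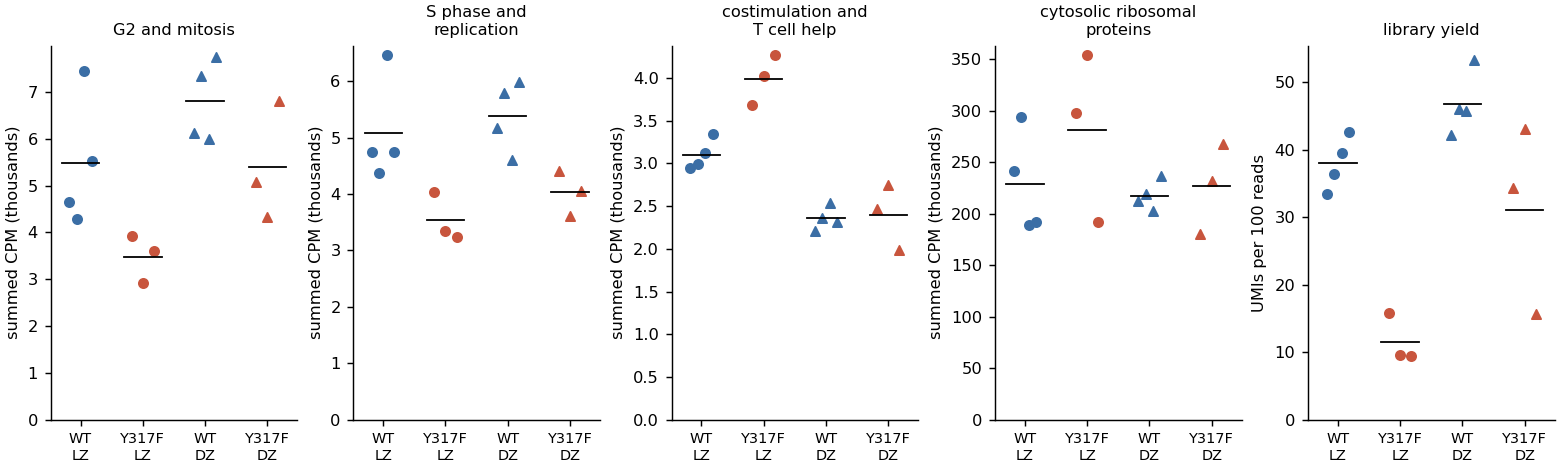
Summed CPM of 4 gene lists (in units of 1000 CPM, y axes from 0) and UMIs per 100 reads in each library of the 4 groups, with group means as lines. In the light zone the mitotic and replication sums of the 3 SykY317F libraries lie below and the costimulation sums above all 4 WT libraries, ribosomal protein sums overlap, and the yield of SykY317F LZ lies far below that of WT LZ.

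E2F factors switch on the genes of S phase (E2F1 to E2F3) or shut them down again later (E2F7 and E2F8), and Myc and G1 cyclins act before them. Of 27 tested genes of this G1 list 21 lay lower, with a median of -0.36. E2f1 was at 86.7, 75.1, 99.8 and 62.4 CPM in WT and 38.8, 11.3 and 37.6 CPM in SykY317F, without overlap, a log2 fold change of -1.40 ± 0.38 (adjusted p = 0.195). E2f7 had 2 UMIs in SykY317F against 56 in WT, a 4.503-fold lower level (95% counting interval 1.19 to 38.1). E2f3 lay higher, at 17.6, 9.89, 23.03 and 15.6 CPM in WT and 50.7, 45.2 and 31.4 CPM in SykY317F, a log2 fold change of 1.42 ± 0.43, while its DZ difference was -0.83 ± 0.43. Myc, the growth regulator switched on by T cell help, overlapped between the groups, at 59.2, 57.3, 49.9 and 24.8 CPM in WT and 23.9, 67.7 and 69.00 CPM in SykY317F (0.09 ± 0.49, adjusted p = 0.975).

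Because replication genes lay low together, their promoters were searched for the letters that E2F factors are known to bind. RefSeq promoter windows of GRCm38.p6, 250 bases before to 50 after each start, were found for 37 of the 44 tested replication genes. The motifs were TTTCCCGC, TTTGGCGC, TTTGCCGC and TTTCGCGC on both strands. They occurred in 34.1% of the 41 windows of these 37 genes (a gene can have more than 1 start), in 6.12% of 49 windows of mitotic genes and in 1.56% of 64 windows of ribosomal protein genes, beside 4.31% of the 7910 windows of all tested genes. Of the 14 replication genes with a match 12 lay lower in SykY317F, 4 of them at an unadjusted p under 0.05, and of the 23 without a match 18 lay lower, 6 of them at that p. A match is a description of letters and not a site of binding. The 4 replication genes with the smallest p that held a match before their start are shown as examples. They are printed 5′ to 3′ on the strand of the gene, with the motif in capitals, and were chosen after their values were seen.
Mcm6: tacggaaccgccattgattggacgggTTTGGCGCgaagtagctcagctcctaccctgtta
Mcm7: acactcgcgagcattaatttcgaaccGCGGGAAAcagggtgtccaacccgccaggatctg
Pola1: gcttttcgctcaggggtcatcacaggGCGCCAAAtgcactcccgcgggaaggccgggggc
Uhrf1: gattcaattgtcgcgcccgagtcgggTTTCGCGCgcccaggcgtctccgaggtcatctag

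The Mcm6 stretch is chr1:128359719-128359778 on the minus strand, 73 to 14 bases before the start. The Mcm7 stretch is chr5:138172015-138172074 on the minus strand, 191 to 132 bases before the start. The Pola1 stretch is chrX:93632260-93632319 on the minus strand, 164 to 105 bases before the start. The Uhrf1 stretch is chr17:56304102-56304161 on the plus strand, 211 to 152 bases before the start. For Mcm7 and Uhrf1 the start is the one whose window held a match, and the window of another start of each gene held none. Mcm6 and Mcm7 are subunits of the replicative helicase, Pola1 is the catalytic subunit of DNA polymerase alpha, and Uhrf1 guides DNA methylation to newly made DNA. Mcm6 was at 247, 269.9, 478 and 290.4 CPM in WT and 229.8, 135 and 176 CPM in SykY317F (-0.80 ± 0.28) and Mcm7 at 273, 247, 363 and 277 CPM in WT and 212, 147 and 219.5 CPM in SykY317F (-0.58 ± 0.26). Pola1, a weak gene, was at 16.5, 21.7, 42.2 and 20.2 CPM in WT and 14.9, 0 and 6.27 CPM in SykY317F (-1.50 ± 0.66), and Uhrf1 at 183, 104, 215 and 124 CPM in WT and 131, 73.4 and 56.5 CPM in SykY317F (-0.76 ± 0.35). All SykY317F values lay below the lowest WT value for Mcm6, Mcm7 and Pola1, while those of Uhrf1 overlapped.

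Ribosomal protein genes lay mostly on the other side. All 76 of the list were measured and 74 tested, and 60 lay higher in SykY317F, with a median of 0.34. At an unadjusted p under 0.05, 18 were higher (24.3%) and 1, Rpl15, was lower (1.35%), beside 3.64% and 6.18% of all tested genes. Rpl23 (chromosome 11, 97777527 to 97782437), of the large subunit, was at 1505, 1674, 1647 and 2179.5 CPM in WT and 4009, 5504 and 2641 CPM in SykY317F, without overlap, a log2 fold change of 1.21 ± 0.27 (adjusted p = 0.1202). Rpl38, of the large subunit, was at 1481, 1322, 1261 and 1090.0 CPM in WT and 2456, 3720.1 and 1631 CPM in SykY317F (1.01 ± 0.27). Rpl36a was at 316, 406, 798 and 508 CPM in WT and 1012, 2252 and 1399 CPM in SykY317F (1.62 ± 0.40). Rpl36al (chromosome 12, 69182731 to 69184083) and Rpl37rt (chromosome 5, 115102923 to 115110268), near copies of other ribosomal protein genes outside the list, had 1.42 ± 0.31 and 1.23 ± 0.29, and Rpl37rt had 0.10 in read counts.

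The median of this list depended on single libraries. The summed level was 241770.0, 294109, 188881 and 191872 CPM in WT and 297595, 354362 and 192384 CPM in SykY317F, so SykY317F replicate 4 lay within the WT range and SykY317F replicates 1 and 2 above it. Without SykY317F replicate 2 the median was 0.07, with 45 of 74 on the higher side, and without SykY317F replicate 4 it was 0.54, with 68 of 74. Read counts gave 50 of 74 and a median of 0.17. Genes under 1000 bases outside the list leaned the same way. The 74 genes had a median transcript length of 910 bases, and 475 other genes under 1000 bases had a median log2 fold change of 0.10, with 11.6% higher and 2.74% lower at an unadjusted p under 0.05. With all tested genes divided by length into 5 groups of like size, the share higher at that p was 7.30% in the shortest group and 1.95% to 3.53% in the other groups. The shortest group, which also holds ribosomal protein genes, had a median of -0.01 and 5.91% lower at that p. Length and the LZ difference had a Spearman correlation of -0.05. The part of transcript length in the ribosomal difference was not tested.

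Other parts of the translation machinery did not share the direction. Of 56 tested nucleolar genes of ribosome biogenesis 40 lay lower, with a median of -0.14. Polr1a, the largest subunit of RNA polymerase I, was at 51.6, 47.4, 47.99 and 28.3 CPM in WT and 11.9, 11.3 and 12.5 CPM in SykY317F (-1.85 ± 0.49), and Ddx27, an RNA helicase of ribosome assembly, at 112, 113, 123 and 90.6 CPM in WT and 65.7, 50.8 and 75.3 CPM in SykY317F (-0.77 ± 0.28). Bysl was the opposite, at 7.68, 3.95, 0 and 5.196 CPM in WT and 23.9, 16.9 and 12.5 CPM in SykY317F. Mitochondrial ribosomal proteins had a median of -0.07 over 64 tested, with Mrps33 at 2.82 ± 0.73 and Mrps30 at -1.33 ± 0.39 as its extremes by p. The 51 tested translation factors had a median of 0.00. Among them Eif5a, which helps ribosomes past proline stretches, was at 1454, 1492, 1789 and 1359 CPM in WT and 1122, 689 and 1060.0 CPM in SykY317F (-0.67 ± 0.23), Eif3c had -0.63 ± 0.23, and Eef1b2, an elongation factor, lay higher at 0.58 ± 0.24.

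Oxidative phosphorylation, by far the best measured metabolic list with 71 of 74 tested genes at 50 CPM or more, had 37 higher and 37 lower and a median of 0.00. At an unadjusted p under 0.05, 8 were higher (10.8% beside 3.64% of all tested genes) and 6 lower (8.11% beside 6.18%). Uqcrh, a hinge protein of complex III, was at 159, 229, 516 and 354 CPM in WT and 922, 892 and 408 CPM in SykY317F (1.25 ± 0.33), Ndufb4 of complex I had 1.01 ± 0.30, and Atp5l of the ATP synthase had 1.61 ± 0.53. Glycolysis genes had a median of 0.08 over 16 tested, and genes of fatty acid and sterol metabolism -0.13 over 35.

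**Figure D4:**
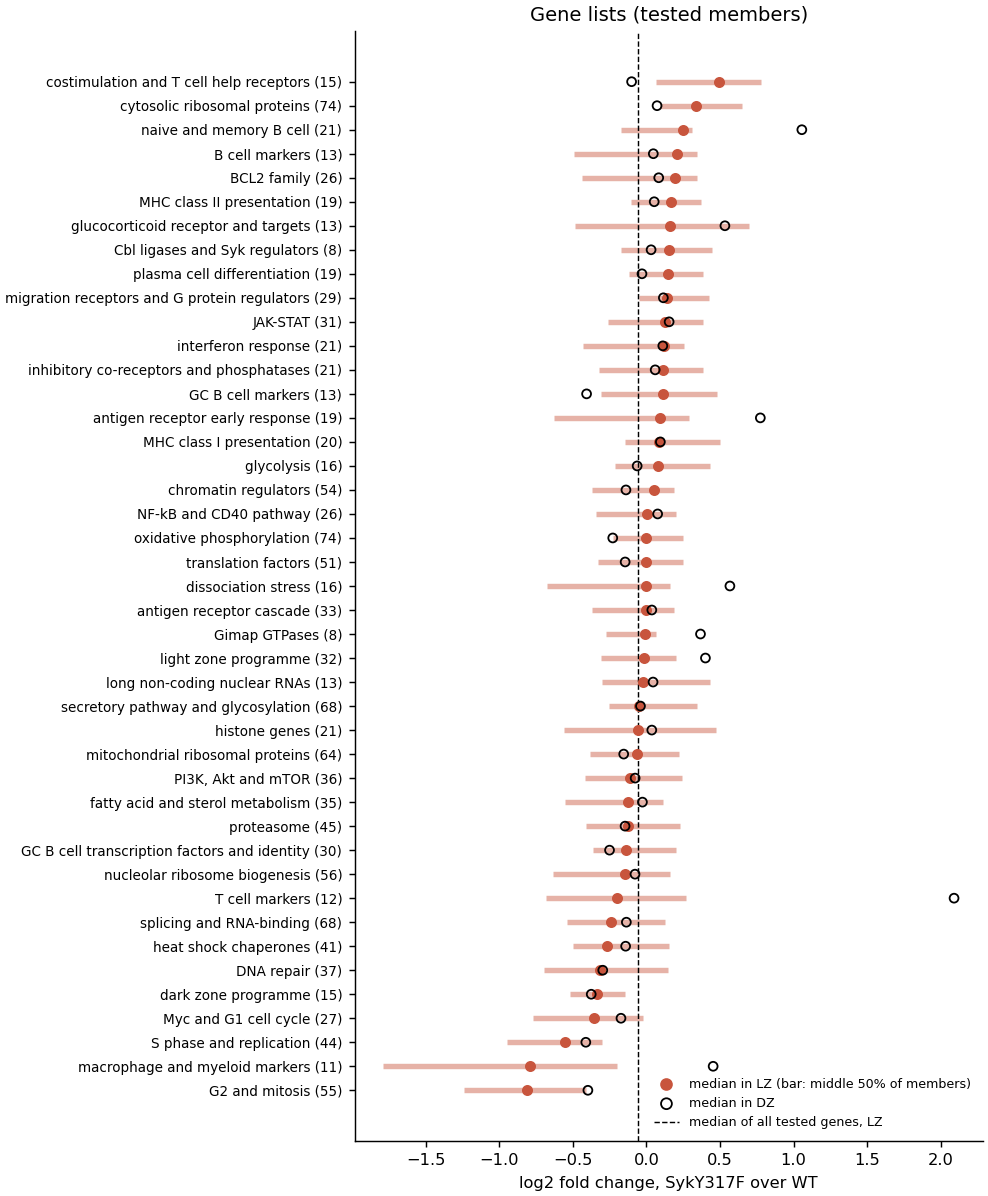
Median log2 fold change of SykY317F over WT for 43 gene lists in the LZ (filled, with the middle 50% of members) and in the DZ (open), with the number of tested members in parentheses and the LZ median of all tested genes as a dashed line. Mitosis, myeloid and replication lists lie lowest and the costimulation and ribosomal protein lists highest in the LZ.

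The cascade that starts with Syk was split. Of 33 tested genes of the antigen receptor cascade 16 lay higher and 17 lower, with a median of -0.01, 1 higher and 1 lower at an unadjusted p under 0.05, and summed levels of 12866, 11435, 11975 and 11935 CPM in WT and 13359.8, 11651 and 13065 CPM in SykY317F. Btk, the kinase next to Syk, was at 50.5, 82.05, 99.8 and 147 CPM in WT and 116, 164 and 226 CPM in SykY317F, a log2 fold change of 0.79 ± 0.34 (adjusted p = 0.4397), with SykY317F replicate 1 inside the WT range. Blnk, the adaptor that Syk phosphorylates, was at 439, 454, 587 and 576 CPM in WT and 328, 254 and 521 CPM in SykY317F (-0.49 ± 0.26). Cd79a, a signalling chain of the antigen receptor, was at 108, 138, 97.9 and 128 CPM in WT and 161, 175 and 151 CPM in SykY317F, all SykY317F libraries above all WT ones (0.45 ± 0.24, adjusted p = 0.543). Dapp1, an adaptor that binds phosphoinositides, lay below without overlap, at 57.05, 60.3, 72.9 and 65.8 CPM in WT and 41.8, 39.5 and 31.4 CPM in SykY317F (-0.74 ± 0.30). Counting by group overlap, 2 members lay apart above and 2 below (6.06% each, beside 3.84% and 6.66% of all tested genes).

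The Cbl side was too weakly expressed to measure well. Cbl was at 13.2, 31.6, 28.8 and 37.5 CPM in WT and 11.9, 5.65 and 37.6 CPM in SykY317F, from 11 UMIs in SykY317F, with a log2 fold change of -0.72 ± 0.79 (adjusted p = 0.814). Cblb had 2 UMIs in SykY317F against 42 in WT, a 3.38-fold lower level (95% counting interval 0.879 to 28.8), an interval that includes 1, and without WT replicate 5 its log2 fold change was 0.53. The 8 tested genes of this list, Cbl ligases and other regulators of Syk, had a median of 0.15, which was -0.47 without SykY317F replicate 4. Inhibitory co-receptors and phosphatases had a median of 0.11 over 21 tested genes, with 0 at an unadjusted p under 0.05 in either direction.

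Early response genes, which activated B cells switch on, had a median of 0.09 over 19 tested and 0 at an unadjusted p under 0.05. Without SykY317F replicate 2 that median was -0.41, with 4 of 19 higher. The NF-kB and CD40 pathway had a median of 0.00 over 26 tested (-0.22 without that library) and also 0 at that p. In this pathway, Ikbkb, a kinase that frees NF-kB, was at 106, 111, 102 and 120.1 CPM in WT and 53.7, 90.3 and 81.5 CPM in SykY317F (-0.59 ± 0.31) and Traf5, an adaptor of CD40, at 123, 122, 140.1 and 132 CPM in WT and 110.4, 62.1 and 87.8 CPM in SykY317F (-0.54 ± 0.28), both below WT in every library, although Ikbkb had 0.25 in read counts. JAK-STAT genes had a median of 0.13 over 31, led by Jak1, a kinase of cytokine receptors, at 167, 172, 186 and 225 CPM in WT and 319, 581 and 226 CPM in SykY317F (0.997 ± 0.38). Genes of PI3K, Akt and mTOR had -0.11 over 36, led by Lamtor5, a part of the complex that anchors mTOR to lysosomes, at 0.92 ± 0.32.

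The list of costimulation and T cell help, which also holds Fas and Tnfrsf13c, had the highest median of the 43 lists. Of 15 tested receptors and ligands 11 lay higher, with a median of 0.49, and 4 of the 15 were higher and 0 lower at an unadjusted p under 0.05 (26.7% beside 3.64%). The summed level was 2952, 2997, 3117 and 3339 CPM in WT and 3686, 4019 and 4265 CPM in SykY317F, with all SykY317F libraries on top. Icosl (chromosome 10, 78069302 to 78083913), the ligand by which B cells engage ICOS on follicular helper T cells, was at 174, 139, 148 and 119.5 CPM in WT and 412, 282 and 213 CPM in SykY317F, a log2 fold change of 1.08 ± 0.26 (adjusted p = 0.123). Ly9, a SLAM family receptor, was at 178, 147, 182 and 214 CPM in WT and 257, 339 and 219.5 CPM in SykY317F (0.59 ± 0.22), and Tnfrsf13c, the receptor for the survival factor BAFF, at 580.3, 570.4, 789 and 805 CPM in WT and 779, 971 and 1148 CPM in SykY317F (0.49 ± 0.22). Fas, the death receptor that GC B cells carry, was at 38.4, 57.3, 86.4 and 114 CPM in WT and 134, 119 and 188 CPM in SykY317F (0.97 ± 0.45). The groups did not overlap for Icosl, Ly9 and Fas, and they did for Tnfrsf13c. Leaving out single libraries gave between 1 and 6 higher members at that p, with medians of 0.38 to 0.58.

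The genes used to tell the zones apart did not all go one way. Cd83, a light zone surface marker, was at 406, 705, 541 and 729 CPM in WT and 779, 819 and 959.7 CPM in SykY317F, above WT in every library (0.51 ± 0.26, adjusted p = 0.531). Cd86, a costimulatory ligand and light zone marker, overlapped at 64.7, 67.2, 82.5 and 118 CPM in WT and 104, 62.1 and 201 CPM in SykY317F (0.52 ± 0.55). Cxcr4 (chromosome 1, 128588199 to 128592293), the chemokine receptor that holds cells in the DZ, was higher in SykY317F LZ, at 159, 170.0, 95.97 and 93.5 CPM in WT and 245, 485 and 245 CPM in SykY317F. Its lowest mutant library stood above the highest WT one, and its log2 fold change was 1.31 ± 0.33 (adjusted p = 0.154 in edgeR, 0.0282 in DESeq2). The adjusted p in the authors' own comparison was 0.0561, and edgeR on read counts gave 0.138, both above the threshold. Of 15 tested genes of the dark zone programme, Cxcr4 included, 12 lay lower and 3 higher, with a median of -0.34. At an unadjusted p under 0.05, Gadd45b and Ccnb2 were lower and Cxcr4 was higher. The light zone programme had 15 of 32 on the higher side, a median of -0.02 and 0 at that p in either direction.

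Bcl6 (chromosome 16, 23965052 to 23988852), the repressor that GC B cells require, was lower in SykY317F, at 272, 203, 282 and 288 CPM in WT and 131, 95.97 and 194 CPM in SykY317F, without overlap. Its log2 fold change was -0.91 ± 0.27 (adjusted p = 0.269), and the DZ difference was -0.53 ± 0.24. Irf4, a factor of plasma cell fate, was at 54.9, 148, 59.5 and 68.7 CPM in WT and 41.8, 220.2 and 75.3 CPM in SykY317F (0.37 ± 0.68), overlapping. Cd38, which mouse GC B cells turn down, was at 12.1, 55.4, 11.5 and 34.6 CPM in WT and 47.8, 67.7 and 125 CPM in SykY317F, a log2 fold change of 1.40 ± 0.60 beside 1.66 ± 0.59 in the DZ. Prdm1 was not analysed here. Plasma cell genes had a median of 0.14 over 19 tested and genes of naive and memory B cells 0.25 over 21, which was -0.04 without SykY317F replicate 2 and -0.08 without SykY317F replicate 4. The 30 tested genes of GC identity had -0.14, and migration receptors 0.14 over 29, with Ffar2, a receptor for short-chain fatty acids, at 61.4, 48.4, 34.5 and 39.8 CPM in WT and 65.7, 84.7 and 107 CPM in SykY317F (0.86 ± 0.38).

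MHC class II genes summed to 62399, 52604, 60048 and 44907 CPM in WT and 81024, 67859 and 64348 CPM in SykY317F without overlap, although single members were spread, with 13 of 19 higher and a median of 0.17. Cd74, the invariant chain, was at 21822, 18319, 23855 and 11539.7 CPM in WT and 35934, 27204 and 25974 CPM in SykY317F (0.65 ± 0.34, adjusted p = 0.545), and H2-DMb2, which helps load peptides, was at 1.11 ± 0.43. MHC class I genes had a median of 0.08 over 20, led by Nlrc5, their transcriptional activator, at 54.9, 51.4, 74.9 and 95.8 CPM in WT and 107, 135 and 119 CPM in SykY317F (0.78 ± 0.30). Interferon response genes had 0.12 over 21.

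DNA repair genes lay lower as well. Of 37 tested repair genes 27 lay lower, with a median of -0.32. At an unadjusted p under 0.05, 3 were lower (8.11%) and 1 was higher (2.70%). These shares are near the 6.18% and 3.64% of all tested genes. Pcna and Ung, both lower, stand on the replication list too. Ung, which removes uracil from DNA, was at 49.4, 26.7, 99.8 and 46.2 CPM in WT and 32.8, 5.65 and 18.8 CPM in SykY317F (-1.34 ± 0.52), and Mdm2, the ligase that restrains p53, had -0.81 ± 0.38. Lig3, a DNA ligase, was the 1 higher member at an unadjusted p under 0.05, at 9.87, 12.9, 11.5 and 15.6 CPM in WT and 23.9, 33.9 and 50.2 CPM in SykY317F (1.44 ± 0.59). Survival genes of the BCL2 family had a median of 0.19 over 26, which turned to -0.18 without SykY317F replicate 2, -0.02 without SykY317F replicate 1 and -0.08 in read counts. On this list Bnip3, a mitochondrial death protein, had 1.91 ± 0.62, and Bcl2l2, a survival protein, had 1 UMI in SykY317F against 40 in WT, a 6.43-fold lower level (95% counting interval 1.09 to 260.4).

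Of 68 tested splicing and RNA-binding genes 45 lay lower, with a median of -0.24, 11 lower (16.2%) and 4 higher (5.88%) at an unadjusted p under 0.05. Members differed in sign. Snrnp70 and U2af2, which recognise the ends of introns, had -0.89 ± 0.27 and -0.95 ± 0.29, while the small Sm proteins Snrpg and Snrpe had 0.93 ± 0.29 and 1.26 ± 0.39. Heat shock chaperones had a median of -0.27 over 41, with Fkbp4, a co-chaperone of steroid receptors, at 151, 163, 188 and 144 CPM in WT and 101, 119 and 75.3 CPM in SykY317F (-0.70 ± 0.27) and Dnaja2 at 1.34 ± 0.44, which was 0.17 in read counts. Proteasome genes had -0.13 over 45, led by Psmd6 at -1.48 ± 0.50. Srp14, of the signal recognition particle, was at 0.81 ± 0.24. Chromatin regulators had 0.05 over 54 and histone genes -0.05 over 21, where H3f3a had -0.62 ± 0.26 and Hist1h2ak 1.68 ± 0.51, which was -0.98 in read counts. Setd1b, a histone H3 methyltransferase subunit, had 3 UMIs in SykY317F against 129 in WT, a 6.92-fold lower level (95% counting interval 2.31 to 33.97). Gimap GTPases had -0.01 over 8, dissociation stress genes 0.00 over 16 and nuclear non-coding RNAs -0.02 over 13.

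The 12 tested T cell markers had a median of -0.20 (-1.24 without SykY317F replicate 2) and the 11 tested myeloid markers -0.79, with 0 at an unadjusted p under 0.05 in either list. Of 11 NK and cytotoxic markers 3 were measured and 2 tested, 1 lower and 1 higher. Ccl5, a chemokine of cytotoxic cells, was at 38.4, 173, 177 and 453 CPM in WT and 71.6, 16.9 and 62.7 CPM in SykY317F (-2.01 ± 0.84), from 1087 UMIs in WT and 37 in SykY317F. Tbx21 lay higher, at pooled levels of 12.9 and 16.4 CPM. Of 4 tested stromal and endothelial markers 3 lay lower. Among them Igfbp4 of stromal cells had 33 UMIs in WT and 0 in SykY317F, at least 1.77-fold lower. Pecam1, the best measured of them, lay higher, at pooled levels of 77.8 CPM in WT and 90.8 in SykY317F. The part of such cells in the differences above was not tested.

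Whether these differences are larger in the LZ than in the DZ was tested directly. The genotype difference in LZ minus that in DZ was called for 0 of 7999 genes in edgeR (smallest adjusted p = 0.535), and for 0 in DESeq2, with 384 at an unadjusted p under 0.05 in edgeR. The genotype difference in the DZ alone was called for 0 genes too, with 305 at that p. Nr3c1 had an LZ minus DZ difference of -1.82 ± 0.42 (adjusted p = 0.703), Gar1 -1.68 ± 0.42 and Ndufs4 1.78 ± 0.45, none of them past the threshold. The named genes were chosen by their LZ values, so their LZ differences are large by choice. Across all tested genes the genotype differences of the zones, which share no library, had a Pearson correlation of 0.19, a description over genes that are not independent. The mitotic list had a median of -0.40 in the DZ with 53 of 55 lower, and the replication list -0.41 with 39 of 44 lower, so both medians lay below 0 in both zones. The summed mitotic levels of the genotypes overlapped in the DZ. The summed replication levels did not, at 4413, 3616 and 4061 CPM in SykY317F DZ and 4610 to 5978 in WT DZ. Costimulation had -0.10 and ribosomal proteins 0.07 in the DZ. SykY317F DZ replicate 2 stood apart on the zone programmes. Its light zone programme sum was 6047 CPM, against 3138 to 4186 in the other DZ libraries and 5267 to 7214 in WT LZ. Its dark zone programme sum was 2870 CPM, against 3989 to 5133 in the other DZ libraries. It also had the lowest mitotic and replication sums of the DZ. All DZ genotype values and LZ minus DZ values include this library, and its part in them was not tested.

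**Figure D5:**
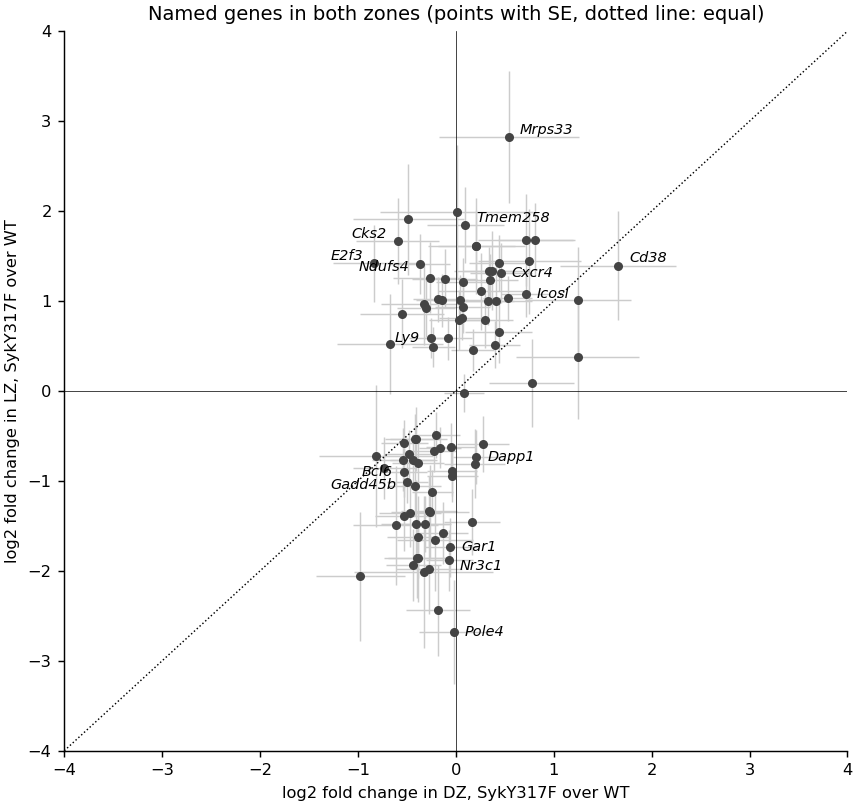
Log2 fold change of SykY317F over WT in the DZ (x axis) and LZ (y axis) with SE for 90 named genes that have over 3 UMIs in each LZ group. The genes were chosen by their LZ values, and Cd38, Icosl, Bcl6 and Gadd45b share a direction in both zones.

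The authors' deposited table gives its own comparison of these groups. It lists 25 genes at an adjusted p under 0.05, 19 higher and 6 lower in SykY317F, and all 25 had an unadjusted p under 0.05 in edgeR here. Of the 42 genes that DESeq2 called here, 22 were among those 25, which is 88.0% of the authors' list and 52.4% of the other, all 22 in the same direction. Both lists rest on the same libraries and are not independent. Read counts, which keep PCR copies, called 54 genes, 8 of them shared with the 42, among which Nr3c1, Gar1, Spc24, Rpa1, Ndufs4 and Rpl36a were also in the authors' deposited table.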

How the data were processed

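Per the labels' protocols, poly(A) RNA of sorted GC B cells was captured on oligo(dT) beads and sequenced with a modified MARS-seq method. The deposited tables hold counts per gene as UMIs (9969 genes) and as reads (11912 genes), whole numbers that the authors had not normalized, per the file headers. They also hold log2 fold changes and adjusted p-values of the authors' own comparisons, per the file headers. Reads were handled with STAR 2.4.2a, cutadapt and HTSeq on build mm10, and DESeq and DESeq2 are named too, per the submitters' processing notes, which give no role or order.

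UMI counts of all 14 libraries in 4 groups were fitted with edgeR 4.0.16 in R 4.3.3 (filterByExpr, TMM scaling, robust quasi-likelihood test), which left 7999 genes, and p-values were adjusted by Benjamini-Hochberg over them. Called means an adjusted p under 0.05. Alternatives were DESeq2 1.42.0, limma 3.58.1 voom, other scalings and filters, LZ libraries alone, read counts, thinning, replicate numbers as a block and each LZ library left out. The labels do not say what a shared replicate number means, so the number was no term of the fit. Genes named are the 10 with the smallest p in each direction, the same among genes of at least 50 CPM, up to 4 per list and a set around Syk and the GC. A few genes that this rule names are not reported here. Predicted genes were counted, not named, and were 6 of the first 50 by p. The libraries, gene lists and named genes were chosen with earlier results of these data known. Positions are GENCODE, GRCm38, matched by symbol or synonym for 9894 genes.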

Additional observations from a re-analysis of the deposited data

Results flagged for a closer look

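Among 101 sets of 4 WT LZ values tested, 1 library stood apart from the other 3 by Dixon's ratio in 4 sets, where chance gives about 1 in 20. Cblb was at 21.4 CPM in WT replicate 5, Irf4 at 148 CPM in WT replicate 2, Eif3c at 392 CPM in WT replicate 3, and Eef1b2 at 807 CPM in WT replicate 2.

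For 3 of the genes named in the text every SykY317F library lay on one side of WT in the LZ and on the other side in the DZ. In the LZ alone, 3.84% of all tested genes lay apart above WT and 6.66% below. The share of all genes apart in opposite directions is not given here, so the 3 cannot be set against it. Ly9 was higher in the LZ (0.59 ± 0.22) and lower in the DZ (-0.26 ± 0.22), a difference between zones of 0.85 ± 0.31 (edgeR adjusted p = 0.991). Setd1b was lower in the LZ and higher in the DZ (1.28 ± 0.42), a fitted difference of -4.02 ± 0.84 that rests on 3 UMIs in SykY317F LZ (adjusted p = 0.535). Igfbp4 had 0 UMIs in SykY317F LZ, so its fitted difference of -10.10 depends on the prior count (adjusted p = 0.703). None of the 3 differences passed the threshold.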

How the results depend on the processing

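The count of called LZ genes was 0 under DESeq2 size factors, no filter, a stricter filter, LZ libraries alone, voom, the replicate block and thinning (median draw), 1 with library size scaling (Nr3c1), 42 with DESeq2 and 54 with read counts. Leaving out single libraries gave 0 to 3 calls: E2f8 without WT replicate 2, and Nr3c1, Rpl36al and 1 predicted gene without WT replicate 3. Genes at an unadjusted p under 0.05 numbered 785, 533 with the replicate block, 1452 with read counts and 109 with thinning (90 to 122 over 21 draws), where fewer UMIs and 4258 to 4311 genes remained. The LZ minus DZ count was 0 under every alternative run; LZ libraries alone cannot give it. Of 98 named genes followed, 90 kept their direction. Syk turned to 0.0105 with the stricter filter, 0.00107 with LZ libraries alone and 0.147 with thinning, and ranged from -0.117 to 0.0698 without single libraries. Myc turned to -0.0404 with voom and -0.119 with the replicate block, and ranged from -0.188 to 0.51 without single libraries. Irf4 turned to -0.0717 with voom and ranged from -0.61 to 0.82 without single libraries, and Tsc22d3 from -0.12 to 1.44, both lowest without SykY317F replicate 2. Read counts turned Cbl to 0.38, Ikbkb to 0.25 and Hist1h2ak to -0.98, and Cblb ranged from -1.99 to 0.53 without single libraries, highest without WT replicate 5. The cause was not tested. Medians of 15 of 43 lists kept one side of 0 under 13 alternatives, among them mitosis, replication, costimulation and ribosomal proteins, and the medians of the other 28 lists crossed it under at least 1. Deviations of log2 CPM from group means were correlated between libraries of different groups. The 2 same-numbered LZ pairs correlated at 0.249 and 0.291 and the 10 differently numbered LZ pairs at -0.268 to 0.222. Over pairs from all groups, the 14 same-numbered ones ranged from -0.520 to 0.376. The 59 differently numbered ones ranged from -0.622 to 0.621. The block called 0 genes, and with it 10 mitotic genes (median -0.59) and 6 replication genes (median -0.44) were lower at an unadjusted p under 0.05, against 21 and 13 without it. The low depth of SykY317F LZ limits genes under about 18.8 CPM.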
